A study of Homo sapiens with 2 samples.

Results

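The BCL2 family was described here through 10 of its genes, found by symbol among the 36601 genes of the count files, each listed under a single gene ID: 4 survival members (BCL2, BCL2L1, BCL2L2 and MCL1), the 2 effectors BAX and BAK1, and 4 members of the BH3-only class (BMF, BCL2L11, PMAIP1 and BBC3). They were measured in HT1080, an established human fibrosarcoma line labelled wild type, grown as spheroids started from 2000 cells, about 50 of them pooled for each library in 500 µl of collagen, and released with collagenase and then trypsin after 72 h. The 4B4 group, 1 library, was cultured with 4B4, a β1 integrin-blocking antibody, at 2 µg/ml; β1 pairs with several α subunits to form receptors for collagen and fibronectin. The control group, also 1 library, carries the treatment label control, with no other antibody named, so that block of the integrin and other effects of an added antibody cannot be told apart. With 1 library a group, library and treatment cannot be told apart either, no difference has a replicate check, and no test was possible.

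Proteins of this family decide whether the outer mitochondrial membrane is opened during apoptosis. Survival members hold the effectors BAX and BAK1 in check, and the BH3-only proteins carry stress signals: they bind survival members, and some also engage the effectors, which form pores that release cytochrome c. In adherent cells attachment to matrix restrains this pathway, and death after loss of attachment is called anoikis. BMF and BIM, the product of BCL2L11, are the BH3-only proteins best known from it, and both bind dynein light chains that tie them to the cytoskeleton. Much of this control acts on proteins, which transcript counts do not show.

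After barcodes with under 1000 detected genes or over 20% mitochondrially encoded UMIs (unique molecular identifiers, counted transcript molecules) were left out, the 4B4 library held 1385 cells and 116451080 UMIs, and the control library 3402 cells and 127218114 UMIs. Depth differed: a kept cell had a median of 68556 UMIs in the 4B4 library and 32914 in the control library. Levels are a gene's UMIs over a library's kept cells per 1000000 of its UMIs (UPM). The mesenchymal markers VIM, FN1, CD44, LGALS1 and S100A6 were each above 100 UPM in both libraries, while NES was at 3.14 in 4B4 and 3.78 in control. Of 14 markers of epithelial, blood, endothelial and liver cells, 10 were under 1 UPM in both libraries; PECAM1 (45.8 in 4B4, 30.3 in control) and CD68 (38.4 and 26.5 in the same order) were the highest. The 14 summed to 89.1 UPM in 4B4 and 62.6 UPM in control; their part in the results was not tested. The libraries shared 2 barcodes. Intervals are at 95%, exact for levels, shares and single-gene ratios and approximate on the log scale, from all 4 sums, for the balance of survival to death members. They cover counting error only, which says nothing of the variation between cultures. The kit counts 3′ ends, so UPM does not scale with transcript length, but whether intronic reads were counted is not given in the sources used here.

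The 4B4 library had higher levels of BMF transcript and lower levels of BCL2 and BCL2L1, while the effectors and MCL1 stayed within 1.1-fold of the control. BMF, an anoikis gene, was 1.83-fold higher in the 4B4 library, and BCL2, the founding survival gene, was 1.66-fold lower. BCL2L1, which encodes BCL-xL, was 1.45-fold lower, and PMAIP1, which encodes NOXA, was 1.37-fold lower. All 10 members reached 5 UPM in either library, the floor used here for measured genes. A measured gene was called at a ratio of at least 1.5 with its counting interval on the same side of 1: BMF was the 1 member called higher, where 2.10% of all 11359 measured genes were, and BCL2 the 1 member called lower, against 5.82% of all genes. With each cell given the same weight neither passed 1.5-fold, at log2 ratios of 0.56 for BMF and -0.43 for BCL2. With that weight over cells of at least 20000 UMIs, a choice made after seeing the data, they were 0.81 and -0.77, both past 1.5-fold. The members' median log2 ratio (4B4 over control) was -0.05, beside -0.0089 over all measured genes, so the family did not move as a block.

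**Figure D1:**
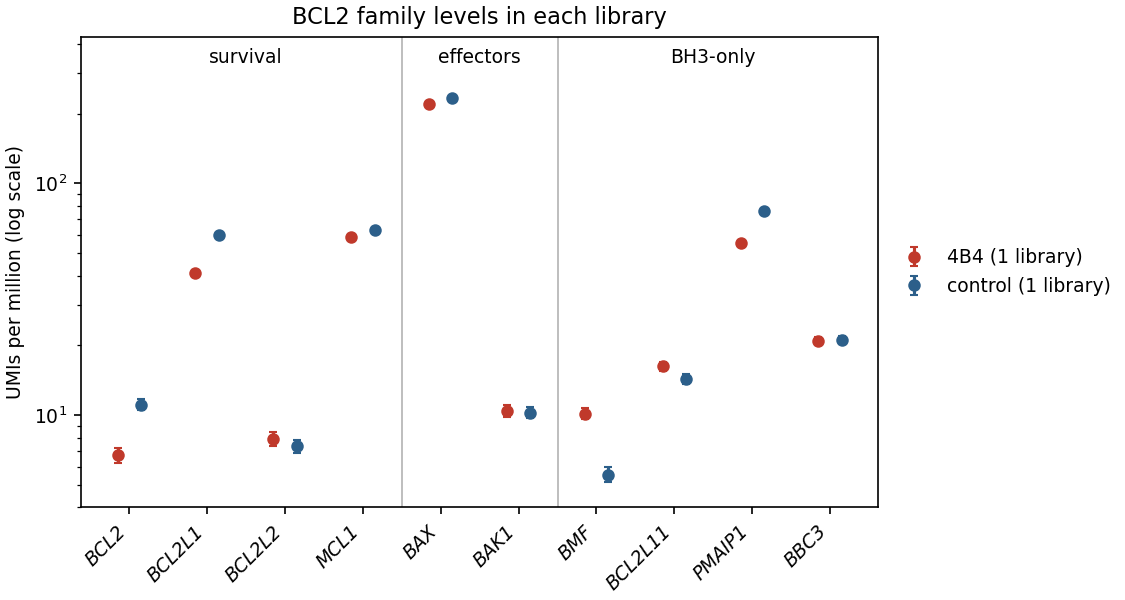
Levels in UPM (log axis) of the 10 members, grouped by role, in the 4B4 library (left point of each pair) and the control library (right point), with exact 95% Poisson intervals. BMF is above its control point, BCL2, BCL2L1 and PMAIP1 are below theirs, and BAX stands above 200 UPM in both libraries.

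Among the survival members, MCL1, a short-lived protein that sequesters BAK1 and several BH3-only proteins, had the highest level, at 58.9 UPM (57.5 to 60.3) in the 4B4 library and 63.2 UPM (61.8 to 64.6) in the control library. BCL2L1 came next, at 41.2 UPM (40.04 to 42.4) in 4B4 and 59.9 UPM (58.5 to 61.2) in control, a log2 ratio of -0.54 (-0.59 to -0.49). The order of these levels was the same in both libraries, but in the control BCL2L1 lay close to MCL1, and under 4B4 it did not. BCL2 was far lower, with 6.70 UPM (6.24 to 7.19) in 4B4 and 11.1 UPM (10.5 to 11.7) in control, a log2 ratio of -0.73 (-0.86 to -0.60). BCL2L2, which encodes BCL-w, had 7.89 UPM (7.39 to 8.42) in 4B4 and 7.34 UPM (6.88 to 7.83) in control, and the interval of its log2 ratio, -0.03 to 0.24, included 0. BCL2L2 shares 813 exonic bases, 19.4% of its own, with the read-through gene BCL2L2-PABPN1, which was counted apart at 3.55 UPM in 4B4 and 2.52 UPM in control; reads on shared bases may be missing from both, so the level of BCL2L2 is uncertain. BCL2 thus ranked below BCL2L2 in the 4B4 library and above it in the control library.

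BAX, the effector that moves from the cytosol to mitochondria, was the most abundant member, at 221 UPM (219 to 224) in 4B4 and 235 UPM (232 to 238) in control. It alone made up 49.3% of the family's UMIs in 4B4 and 46.6% in control. BAK1, the effector resident on the mitochondrial membrane, had 10.4 UPM (9.84 to 11.0) in 4B4 and 10.2 UPM (9.69 to 10.8) in control. The log2 ratios were -0.09 (-0.11 to -0.06) for BAX and 0.02 (-0.09 to 0.14) for BAK1, and the interval of BAK1 included 0.

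The BH3-only members went in different directions. BMF had 10.2 UPM (9.58 to 10.7) in 4B4 and 5.53 UPM (5.13 to 5.96) in control, a log2 ratio of 0.88 (0.74 to 1.01) from 1182 UMIs in 4B4 and 704 UMIs in control. The other anoikis gene, BCL2L11, had 16.2 UPM (15.5 to 17.0) in 4B4 and 14.3 UPM (13.7 to 14.99) in control, a log2 ratio of 0.18 (0.09 to 0.28). Its sign was that of BMF, its size well short of the threshold. PMAIP1, whose product binds mainly MCL1, was the most abundant of the class, with 55.5 UPM (54.2 to 56.9) in 4B4 and 75.9 UPM (74.4 to 77.5) in control, a log2 ratio of -0.45 (-0.50 to -0.41). BBC3, which encodes PUMA and binds every survival member, had 20.9 UPM (20.1 to 21.7) in 4B4 and 21.1 UPM (20.3 to 21.9) in control. BMF took 9.88% of the UMIs of this class in 4B4 and 4.73% in control, and PMAIP1 54.0% in 4B4 and 65.0% in control.

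The sequences before the RefSeq starts of BMF and BCL2L11, the 2 anoikis genes, and of BCL2L1, the abundant survival gene with the larger difference, are printed so that the genes compared above can be read at their promoters. They come from RefSeq's promoter table (GRCh38.p14), 5′ to 3′ on the gene's strand, and keep only bases outside every GENCODE release 29 exon of the gene. The table had entries for 8 of 10 members, and for BCL2 no base remained outside its exons. The BCL2L11 window lies inside the span GENCODE gives that gene, which starts upstream of the RefSeq start used. Capitals mark matches, on either strand, to GTAAACA (FOXO factors), GGAATG (TEAD factors), TGANTCA (AP-1) or GGGCGG (GC box).
BMF, chr15:40108893-40109129, minus strand: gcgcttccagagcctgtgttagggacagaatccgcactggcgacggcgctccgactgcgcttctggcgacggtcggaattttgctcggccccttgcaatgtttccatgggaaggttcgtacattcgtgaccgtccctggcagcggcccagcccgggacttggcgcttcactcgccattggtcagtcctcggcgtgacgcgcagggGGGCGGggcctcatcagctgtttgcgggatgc
BCL2L11, chr2:111120664-111120913, plus strand: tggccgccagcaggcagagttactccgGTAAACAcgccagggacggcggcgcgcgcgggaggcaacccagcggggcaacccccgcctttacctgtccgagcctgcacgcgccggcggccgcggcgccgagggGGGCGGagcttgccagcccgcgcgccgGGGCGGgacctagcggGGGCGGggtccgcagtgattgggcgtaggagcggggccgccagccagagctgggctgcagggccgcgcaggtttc
BCL2L1, chr20:31723990-31724213, minus strand: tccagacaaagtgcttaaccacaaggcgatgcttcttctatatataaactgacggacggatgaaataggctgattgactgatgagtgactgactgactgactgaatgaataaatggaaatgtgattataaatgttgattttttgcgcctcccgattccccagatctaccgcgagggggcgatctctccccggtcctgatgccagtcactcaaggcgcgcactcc
The BMF window held 1 GC box, and windows of its length held that motif in 41.0% of 35116 promoters of the table. The BCL2L11 window held 3 GC boxes and 1 FOXO match, and the shares of promoters with a match in a window of that length were 42.6% for the GC box and 2.98% for the FOXO letters. The BCL2L1 window held none of these letters, and 39.4% of promoters had a GC box at its length. A match or its absence says nothing about binding in these cells.

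On GRCh38, with spans from GENCODE release 29, the members differ much in length. BCL2 (ENSG00000171791) covers 196783 bases of chromosome 18, of which 5.98% are exonic, from 63123346 to 63320128. BMF (ENSG00000104081) covers 21003 bases of chromosome 15 from 40087890 to 40108892, and BCL2L11 (ENSG00000153094) 49070 bases of chromosome 2 from 111119378 to 111168447. BCL2L1 (ENSG00000171552) lies on chromosome 20 from 31664452 to 31723989. MCL1 (ENSG00000143384) is compact, with 5188 bases on chromosome 1 from 150574551 to 150579738, 84.3% of them exonic. The files give a single count for each gene, which cannot be split by exon or intron.

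Detection in single cells followed the sums. Each cell was thinned to 17000 UMIs, which left 1311 cells of the 4B4 library and 3099 of the control library. BMF was then found in 14.3% of 4B4 cells (12.5% to 16.4%) and 9.07% of control cells (8.08% to 10.1%). BCL2 was found in 8.62% of 4B4 cells (7.16% to 10.3%) and 14.1% of control cells (12.9% to 15.4%), and BCL2L1 in 44.5% of 4B4 cells (41.8% to 47.3%) and 56.7% of control cells (55.0% to 58.5%). BAX was detected in 92.9% of 4B4 cells and 95.1% of control cells. Without thinning BCL2 was found in 25.5% of 4B4 cells and 24.7% of control cells, and BCL2L1 in 80.3% of 4B4 cells and 73.0% of control cells, so these orders depend on equal depth, while BMF was found in 41.8% of 4B4 cells and 15.4% of control cells. Part of such a share can be free RNA caught with a cell, and a culture of a single line holds no cell type lacking these genes in which to measure it. The 1% of thinned cells with most UMIs of a gene held 29.7% of all BCL2 UMIs in 4B4 and 16.5% in control, 14.4% of BMF UMIs in 4B4 and 21.5% in control, and 3.18% of BAX UMIs in 4B4 and 3.16% in control. This share is larger for genes with few UMIs, so it is no measure of spread across genes of different level.

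The balance of survival to death members was slightly lower under 4B4. Summed survival members had 115 UPM (113 to 117) in 4B4 and 141 UPM (139 to 144) in control, a log2 ratio of -0.30. Summed effectors and BH3-only members had 335 UPM (331 to 338) in 4B4 and 362 UPM (359 to 365) in control, a log2 ratio of -0.11. There were 0.343 survival UMIs per death UMI in 4B4 and 0.391 in control, a log2 ratio of -0.19 (-0.23 to -0.15). With each cell given the same weight that ratio was -0.033, and over cells of at least 20000 UMIs with the same weight it was -0.15. It was not lower in every kind of cell: by mitochondrial share it was -0.52 in cells under 5%, 0.00082 (-0.05 to 0.05) in cells of 5 to 10% and -0.07 (-0.15 to 0.01) in cells of 10 to 20%. In the barcodes over 20%, left out above, it was 1.24 (0.82 to 1.66), from 356 barcodes in 4B4 and 217 in control. Single pairs differed more than the sum: UMIs of BCL2L1 per UMI of BMF were 4.06 in 4B4 and 10.8 in control, whereas UMIs of MCL1 per UMI of its partner PMAIP1 were 1.06 in 4B4 and 0.832 in control. At equal depth a cell had a median of 2 survival UMIs in both libraries, with means of 1.95 in 4B4 and 2.33 in control, and a median of 5 death UMIs in 4B4 and 6 in control. Cells with no survival UMI made up 20.7% of the 4B4 library and 14.6% of the control library. Cells with more survival than death UMIs made up 10.4% in 4B4 and 10.1% in control, and the median survival share of a cell's family UMIs was 25% in both. Since UMI counts of different proteins' transcripts do not weigh alike in a cell, the sums describe transcripts and no threshold of survival.

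**Figure D2:**
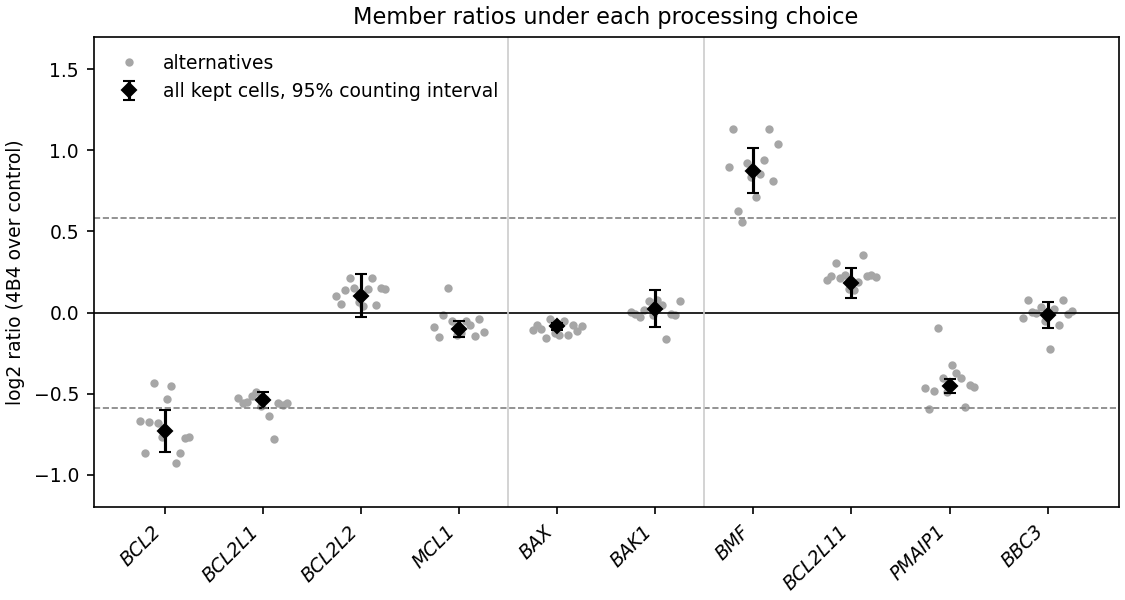
Log2 ratio (4B4 over control) of each member from all kept cells (diamonds, with 95% counting interval) and under 12 other choices of cells, weights or scaling (grey points); dashed lines mark 1.5-fold. BMF stays above 0 and BCL2, BCL2L1 and PMAIP1 below 0 at each point drawn, while MCL1, BAK1 and BBC3 have points on both sides of 0.

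Several members differed between cell cycle phases. For BMF, BCL2, PMAIP1 and BBC3 the signs were the same in both libraries, but not always the sizes. Phase calls, which are ranges of per-cell scores of 43 S and 54 G2M genes, put 11.1% of 4B4 cells in S and 5.64% in G2M, against 19.7% and 17.1% of control cells; such shares depend on how the scores are computed. BMF was lowest in G2M: in the 4B4 library it had 5.59 UPM in G2M cells, 7.74 in S and 10.9 in G1, and in the control library 2.98 in G2M, 3.77 in S and 6.61 in G1. The log2 ratio of G2M over G1 was -0.96 (-1.41 to -0.54) in 4B4 and -1.15 (-1.51 to -0.80) in control. BCL2 was highest in S, with 14.0 UPM in S and 5.34 in G1 in the 4B4 library, and 18.7 in S and 7.74 in G1 in the control library. PMAIP1 was higher in G2M than in G1 by a log2 ratio of 0.49 in 4B4 and 0.50 in control, and BBC3 was lower in S than in G1, with log2 ratios of -0.45 (-0.67 to -0.25) in 4B4 and -0.93 (-1.10 to -0.76) in control. Its log2 ratio of 4B4 over control was -0.22 in G1 and 0.25 (-0.0037 to 0.51) in S. MCL1 and BAX differed little between phases: the farthest apart were S and G1 for BAX in control cells, with -0.32.

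Within a phase the differences between the libraries were of the same sign for the 4 members that had moved most. The log2 ratio of 4B4 over control for BMF was 0.72 (0.56 to 0.88) in G1, 1.04 (0.62 to 1.46) in S and 0.91 (0.35 to 1.45) in G2M. For BCL2 it was -0.53 in G1, -0.42 in S and -0.44 in G2M, each short of the 1.5-fold threshold, so BCL2 was called over all kept cells but in no single phase. For BCL2L1, not called over all kept cells, it was -0.53 in G1 and passed 1.5-fold in S, with -0.66 (-0.82 to -0.51), and in G2M, with -0.72 (-0.89 to -0.55), and for PMAIP1 -0.32, -0.46 and -0.33 in the same order. The S and G2M values of the 4B4 library rest on 146 and 74 cells. Phase shares differed between the libraries. With the phases weighing the same, the log2 ratio was 0.86 for BMF and -0.45 for BCL2, the latter short of 1.5-fold. It was -0.64 for BCL2L1, past 1.5-fold, and -0.38 for PMAIP1. Beyond these values the part of phase shares in the sums of all cells was not tested.

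**Figure D3:**
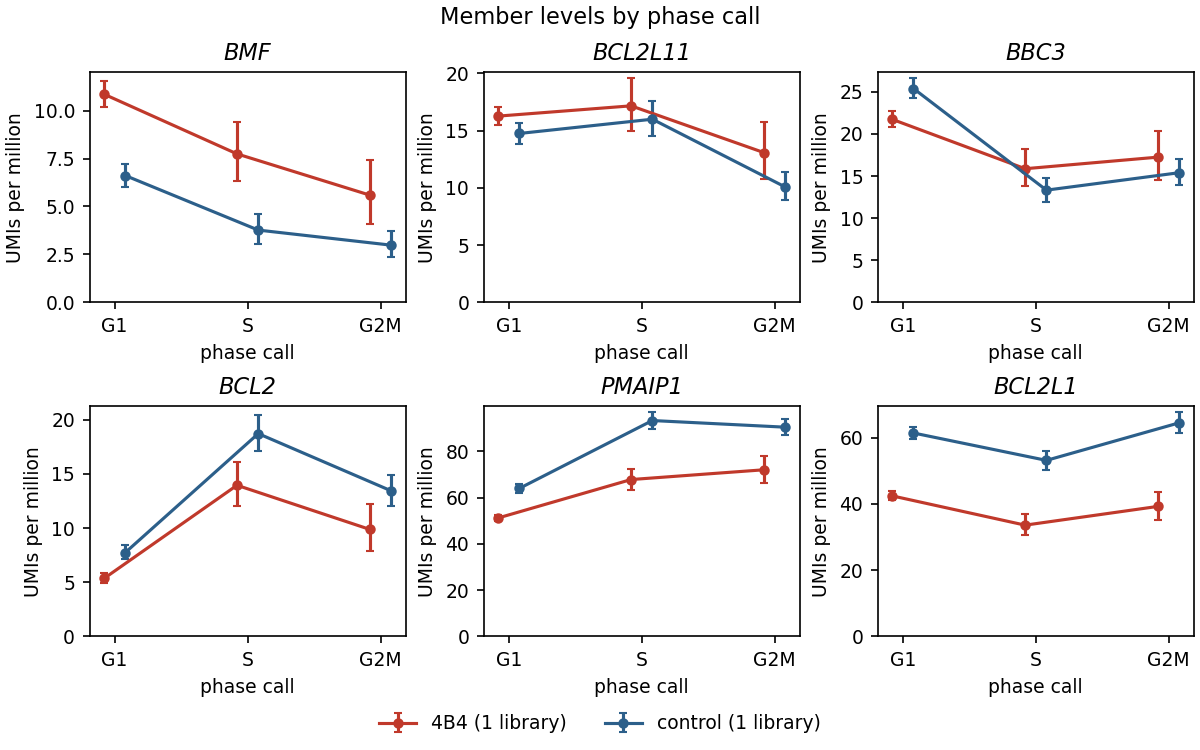
Levels in UPM of 6 members by phase call in the 4B4 library (left point of each pair) and the control library (right point), with exact 95% Poisson intervals. BMF is highest in G1 and BCL2 in S in both libraries, and the 4B4 points of BMF lie above the control points in all 3 phases.

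Members also differed between cells rich and poor in the nuclear RNA MALAT1, a long noncoding transcript. Cells were split into quartiles of MALAT1 share within each library, so the same quartile holds unlike cells: its median MALAT1 level was 264 UPM in 4B4 and 544 UPM in control in quartile 1, 2247 UPM in 4B4 and 4503 UPM in control in quartile 2, 15418 UPM in 4B4 and 12754 UPM in control in quartile 3, and 40072 UPM in 4B4 and 30296 UPM in control in quartile 4. From the poorest to the richest quartile BCL2 had 2.13, 3.88, 10.2 and 12.6 UPM in the 4B4 library, and 6.14, 13.1, 13.9 and 11.1 UPM in the control library. The libraries were therefore far apart in the lower quartiles, with log2 ratios (4B4 over control) of -1.53 and -1.75, and not in the richest one, with 0.19 (-0.06 to 0.43). MCL1 in the 4B4 library had 33.4 UPM in the poorest and 90.7 UPM in the richest quartile, and BCL2L11 7.51 UPM in the poorest and 29.4 UPM in the richest. BAX and BAK1 went the other way, with log2 ratios of richest over poorest of -0.60 and -0.73 in 4B4 and -0.37 and -0.73 in control. The survival to death ratio was 0.570 in the richest and 0.201 in the poorest quartile of the 4B4 library, and 0.474 in the richest and 0.256 in the poorest quartile of the control library. The log2 ratio of that balance, 4B4 over control, was -0.35, -0.64, 0.04 and 0.27 from the poorest to the richest quartile. It was below 0 in both lower quartiles and above 0 in the richest; the part of the unlike MALAT1 levels in this was not tested. BMF was higher under 4B4 in all 4 quartiles, by log2 ratios of 0.70, 1.501, 1.02 and 0.50 from the poorest to the richest. BCL2L11 was not: its log2 ratios were -0.26 (-0.52 to -0.0017) in the poorest quartile and 0.35, 0.23 and 0.35 in the others. The median mitochondrial share was 5.73% in the poorest and 8.11% in the richest quartile of the 4B4 library, and 8.46% and 10.0% in those of the control library; what part it has in these differences was not tested.

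**Figure D4:**
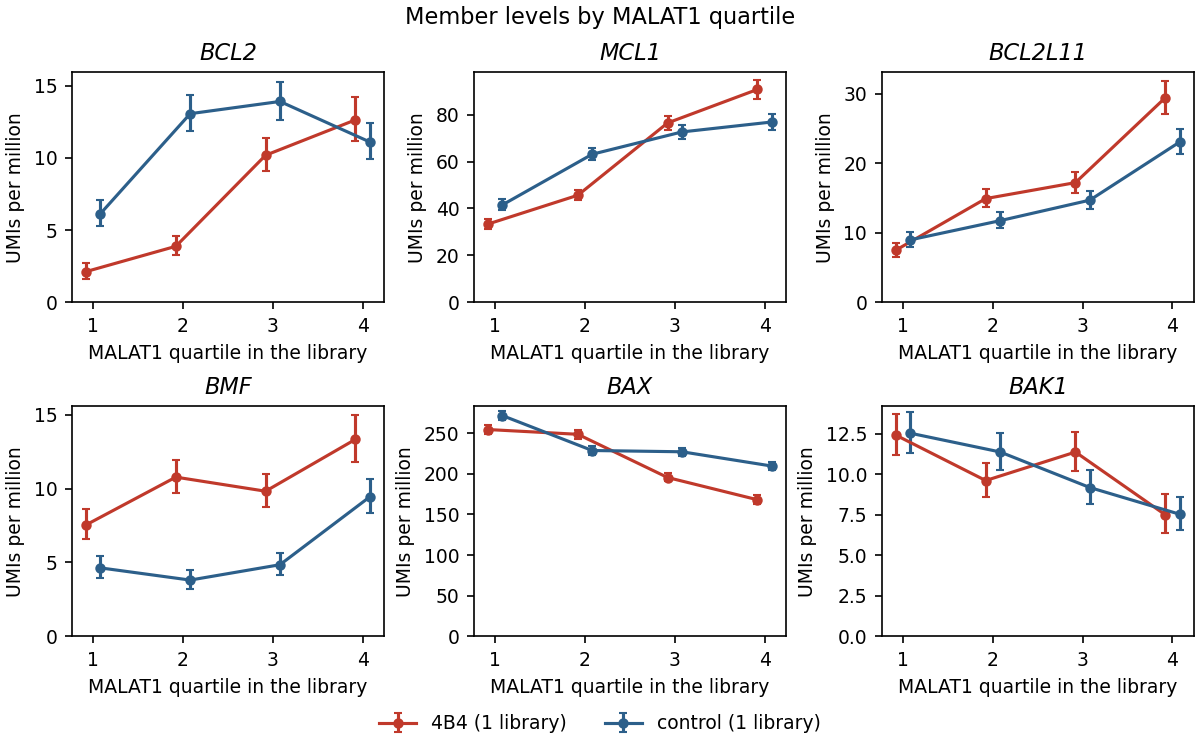
Levels in UPM of 6 members by quartile of MALAT1 share, from 1 (poorest) to 4 (richest), in the 4B4 library (left point of each pair) and the control library (right point), with exact 95% Poisson intervals. BCL2, MCL1 and BCL2L11 are higher and BAX and BAK1 lower in quartile 4 than in quartile 1 in both libraries, and the BCL2 points of the libraries meet in quartile 4.

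Some of the ratios differed between ranges of mitochondrial share and of depth, and the part of either was not tested. In cells under 5% mitochondrial UMIs BMF had 10.0 UPM in 290 4B4 cells and 2.66 UPM in 263 control cells, a log2 ratio of 1.91 (1.37 to 2.50), against 1.00 in cells of 5 to 10% and 0.78 in cells of 10 to 20%. In the same 3 ranges the log2 ratio of BCL2 was -1.28, -0.62 and -0.38, and that of MCL1 -0.72, 0.11 and 0.01. Barcodes with over 20%, which were left out above, had 42.7 UPM of BAX in 4B4 and 72.0 UPM in control, far under the levels of kept cells. Not every member was lower there. In 4B4 BCL2 had 17.8 UPM, BMF 16.8, BCL2L11 26.9 and MCL1 71.2, above kept cells, while BAK1, PMAIP1 and BBC3 were below with 3.24, 25.2 and 10.0. In control MCL1 had 35.1 UPM (25.1 to 47.8), below kept cells. There BCL2 had 8.78 UPM (4.21 to 16.1) and BCL2L11 22.0 UPM (14.2 to 32.4), from 10 and 25 UMIs. Their intervals included the levels of kept control cells, 11.1 and 14.3 UPM. Among cells of 20000 to 60000 UMIs, where the libraries overlap in depth, log2 ratios were 0.94 for BMF, -0.93 for BCL2 and -0.78 for BCL2L1, so BCL2L1 also passed 1.5-fold there. The 84 4B4 cells under 20000 UMIs, with a median of 6863.5 UMIs, stood apart: they had 196 UPM of PMAIP1, 136 of MCL1 and 33.9 of BCL2, against 58.9, 59.5 and 5.90 UPM in 4B4 cells of 20000 to 60000 UMIs. Their counts were small, with 23 UMIs of BCL2 in 9 cells. They held 0.582% of the 4B4 UMIs. Giving each cell the same weight, which raises their part, put the log2 ratio of PMAIP1 at -0.09. With that weight but without cells under 20000 UMIs in either library it was -0.44. MALAT1 was at 50561 UPM in the 84 4B4 cells and at 14584 UPM in the 533 control cells under 20000 UMIs. Its part in the levels of these cells was not tested.

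The family was also set beside a known readout of adhesion by ranking thinned cells, within each library, on the summed UMIs of 6 targets of YAP, a regulator that follows adhesion and spreading. The richest cells were 147 in 4B4 and 318 in control. The cut was 8 UMIs of these targets in 4B4 but 18 in control, so these groups are unlike. BCL2 was higher in them than in the rest, by a log2 ratio of 1.35 (0.76 to 1.90) in 4B4 and 0.83 (0.49 to 1.15) in control. BCL2L1 was higher by 0.35 and 0.47, MCL1 by 0.43 and 0.23, and BAX was lower, with -0.29 and -0.20, in the same order of libraries. BMF had 7.20 UPM in YAP-rich 4B4 cells against 10.0 UPM in the rest, with an interval of the log2 ratio (-1.26 to 0.22) that included 0, and it was lower in YAP-rich control cells, with 3.14 UPM against 6.64 UPM in the rest. PMAIP1 had a log2 ratio of -0.12 (-0.39 to 0.14) in 4B4 and was higher by 0.58 in control. S and G2M calls made up 19.7% of YAP-rich 4B4 cells and 16.4% of the rest, and 46.5% of YAP-rich control cells and 35.8% of the rest. Median MALAT1 was 12892 UPM in YAP-rich 4B4 cells and 6944 UPM in the rest, and 8415 UPM in YAP-rich control cells and 8042 UPM in the rest. Higher BCL2 and MCL1 with lower BAX was also what MALAT1-rich cells showed, and the part of MALAT1 here was not tested.

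**Figure D5:**
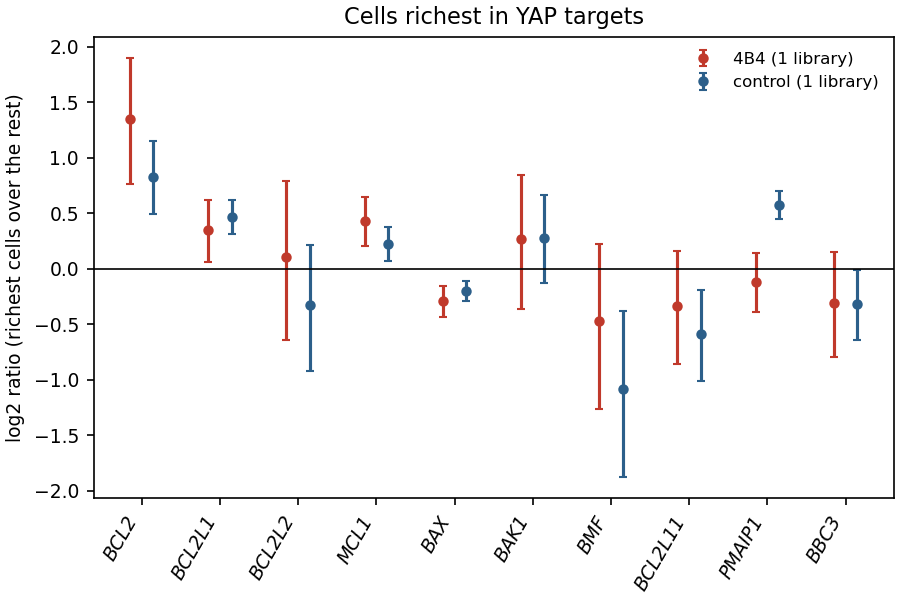
Log2 ratio of each member's level in the cells richest in YAP targets over the rest of the same library, with 95% counting intervals, for the 4B4 library (left point of each pair) and the control library (right point). The cut for the richest cells was 8 UMIs of the targets in 4B4 and 18 in control. BCL2, BCL2L1 and MCL1 are above 0 and BAX is below 0 in both libraries, while PMAIP1 is above 0 with its whole interval in the control library alone.

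Cells with the most HMOX1, IL11 or SAA1, genes that vary between cells of these cultures, were also compared with the rest, for BCL2, BMF and PMAIP1 here. In 157 HMOX1-rich 4B4 cells BCL2 had 2.62 UPM, from 7 UMIs, against 7.19 UPM in the rest, and PMAIP1 69.3 UPM against 54.6 UPM. The cut was 5 HMOX1 UMIs in 4B4 but 1 in control, where 700 cells (22.6%) passed, so these groups are unlike. In control the log2 ratio of HMOX1-rich cells over the rest was -0.28 (-0.60 to 0.02) for BCL2 and -0.08 (-0.18 to 0.03) for PMAIP1. For BMF it was 0.07 (-0.57 to 0.66) in 4B4 and 0.33 (-0.03 to 0.69) in control. Median MALAT1 was 3406 UPM in HMOX1-rich 4B4 cells and 8108 UPM in the rest, and 6743 and 8557 UPM in control. The part of MALAT1 here was not tested. IL11-positive cells had 5.75 UPM of BMF against 10.7 UPM in the rest in 4B4, and 4.43 against 6.65 UPM in control. S or G2M calls made up 25.4% of these cells and 14.5% of the rest in 4B4, and 49.2% and 34.4% in control. The part of phase in this difference was not tested. Log2 ratios of IL11-positive cells over the rest for BCL2 were -0.0093 (-0.63 to 0.57) in 4B4 and 0.14 (-0.19 to 0.45) in control. For PMAIP1 they were -0.07 (-0.28 to 0.13) in 4B4 and 0.10 (-0.02 to 0.22) in control. The 36 SAA1-positive 4B4 cells had 14.7 UPM of BMF, from 9 UMIs, against 9.55 UPM in the rest, a log2 ratio of 0.62 (-0.53 to 1.58). SAA1-positive control cells had 3.43 UPM of BMF and 98.0 UPM of PMAIP1, against 6.83 and 75.2 UPM in the rest. Of these cells 57.2% were called S or G2M, against 33.0% of the rest. Their log2 ratio over the rest for BCL2 was 0.49 (0.18 to 0.78). In SAA1-positive 4B4 cells that ratio was 1.02 (-0.22 to 2.04) for BCL2 and 0.14 (-0.36 to 0.61) for PMAIP1.

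Across cells, members hardly varied together. Among the 5 members of at least 20 UPM, the 10 pairwise Spearman correlations of thinned counts lay between -0.13 and 0.13 in the 4B4 library and between -0.0027 and 0.14 in the control library, and the highest in both was that of BAX with BBC3. These counts are sparse and come from cells of 1 library each. Over 12 strata of library, phase and mitochondrial share the levels most like BAX (highest Pearson r) were those of CDKN1A, with 0.95, SEC11C and PHLDA3; most like BCL2L1 were PRAG1, PTPN1 and SAMD4A; most like PMAIP1 were PRSS23, HPF1 and TEAD4; most like BBC3 were GABARAPL1, TOX4 and ZKSCAN1; and most like MCL1 were GEM and BCAR1. The smallest stratum held 4 cells. Over the 10 strata of at least 20 cells 0 of the 15 most alike genes (3 for each of these 5 members) came back, so these names rest on the 2 smallest strata.

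Other genes of the pathway mostly showed small differences. Of all 11359 measured genes 2.10% were called higher and 5.82% lower, so few or no calls in lists this short say little. Of 9 measured BCL2 relatives beyond the members none passed 1.5-fold, and their median log2 ratio was -0.0017; among them BCL2L14 had -0.55 and BNIP3L, a mitophagy receptor, 0.33. None of 8 measured genes of cytochrome c release and the apoptosome (median -0.09), of 7 caspases and adaptors (median -0.08) or of 6 tethers and turnover genes (median -0.0097) passed either, and DYNLL1 and DYNLL2, the dynein light chains that bind BIM and BMF, had 0.08 and -0.10. Of 4 measured inhibitor of apoptosis genes BIRC5, which encodes survivin and acts in mitosis as well, was lower, at 15.3 UPM in 4B4 and 54.3 UPM in control, and XIAP, a direct caspase inhibitor, had 0.30. BIRC5 is 1 of the 54 G2M genes of the phase calls, and G2M calls were 5.64% of 4B4 cells and 17.1% of control cells. The part of phase in its difference was not tested. Of 5 measured death receptor genes FAS was lower (-0.71). Of 8 measured regulators of BH3-only genes E2F1 (-0.82) and MYC (-0.82) were lower. The FOXO factors FOXO1 and FOXO3 went in different directions, with 0.55 and -0.13, and neither was called. All 6 YAP targets were lower, with a median of -1.34.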

How the data were processed

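Single-cell RNA of 2 HT1080 spheroid cultures was analysed, grouped by treatment label. The authors deposited raw UMI counts per gene and barcode, and the file headers name Cell Ranger 7.1.0; GRCh38 and Seurat 5.0.1 are named in the submitters' processing notes, and the annotation is not given in the sources used here. Each gene's UMIs were totalled across kept cells and scaled to the library's own sum (116451080 UMIs in 4B4, 127218114 in control). Sums have Poisson intervals, ratios and shares Clopper-Pearson intervals, and the balance a normal interval on the log scale, for counting error only. No test was run. Gene IDs of all 10 members matched GENCODE release 29. Phases were called with scanpy 1.11.5 on thinned cells of both libraries together, and TMM factors came from edgeR 4.0.16. Doublets were not called. Richest cells are those at or above the 90th percentile of a marker's thinned UMIs, at least 1. Genes outside the family were named as the up to 3 called genes of each list with the largest ratios. BCL2L14, BNIP3L, XIAP, FOXO1, FOXO3, DYNLL1 and DYNLL2 were added after their values were seen. Profiles over strata used log2(UPM + 1). The ratio calculation and thinning were tested on simulated data. Members, lists and rules were chosen with earlier results of these data known. Results on some genes are not reported here. Alternatives were other cell filters, weights, scalings and thresholds.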

Additional observations from a re-analysis of the deposited data

How the results depend on the processing

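The signs of BMF, BCL2, BCL2L1, PMAIP1, BCL2L2, BAX and BCL2L11 held under all 12 alternatives for single ratios; MCL1, BAK1 and BBC3 changed sign under 1, 6 and 6 of them. The log2 ratio of BMF ran between 0.56 and 1.13 and passed 1.5-fold under 11 of 12; that of BCL2 ran between -0.93 and -0.43 and passed under 9. The balance stayed below 0 under all 11 alternatives that can change it; scaling by TMM or by another total cancels from it and was not run. Its log2 ratio of -0.19 was -0.13 with thinned cells, -0.033 with each cell weighing the same, -0.15 in that setting over cells of at least 20000 UMIs (an alternative chosen after seeing the data), -0.24 over cells of 20000 to 60000 UMIs, -0.37 without MCL1 and -0.14 without BAX. With each cell weighing the same 0 members were at least 1.5-fold higher and 0 lower, over G1 cells 0 were lower, and at a fold of 2 there were 0 in either direction. The count of members lower was 2 under a stricter filter (2000 genes, 10% mitochondrial) with BCL2 and PMAIP1, where 8.37% of all 11368 genes were lower, 2 over cells of 20000 to 60000 UMIs (BCL2 and BCL2L1), where 5.79% of 11399 were, and 3 at the lower fold threshold tried (BCL2, BCL2L1 and PMAIP1), where 13.3% of 11359 were. Causes of these shifts were not tested. Over all 11359 genes 238 were higher and 661 lower; the counts were 1015 and 1515 at the lower fold and 43 and 250 at a fold of 2, and 1046 and 2672 of 31381 with no floor. With each cell weighing the same 446 of 11578 were higher, and over G1 cells 382 of 11194 were lower. Weighting by phase has no counting interval and was not used for counts, and settings that weigh cells equally were called by size alone. No paired analysis was possible because each group has 1 library. Depth limits the strata of few cells most: BMF in G2M cells of the 4B4 library rests on 47 UMIs.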
